A study of Mus musculus with 4 samples.

Results

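Chemokines are small secreted proteins that guide migrating cells through G protein-coupled receptors, and in skeletal muscle they are known for recruiting immune cells to damaged fibres and for steering myoblasts towards each other before fusion. They are named by the spacing of their first cysteines (CC, CXC and CX3C). Glucocorticoids are known to repress many inflammatory chemokine genes through the ligand-bound glucocorticoid receptor. The genes described here are 9 genes of this system, taken as the rows of the count table whose symbol is Cxcl1, Cxcl5, Cxcl12, Cxcl14, Ccl2, Ccl7, Cx3cl1, Cxcr4 or Ackr3, out of 23282 features. All 9 symbols were found, each in 1 row, and all 9 had enough counts to be tested, meaning at least 0.296 CPM (counts put on a shared library total) in 2 or more libraries, which is 10 counts at the median depth. Cxcl14 met this in its replicate 2 libraries alone and Ccl2 in its replicate 1 libraries alone, and the other 7 met it in all 4.

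The study treated steroid-deprived C2C12 myotubes, the multinucleated cells formed by a mouse myoblast line that the labels give as female, for 2 h with vehicle or with 1 µM dexamethasone, a synthetic glucocorticoid. Each group had 2 libraries of RNA that stayed bound to chromatin, and the composition of the vehicle is not named. C2C12 is a single cell line without the immune, vascular or nerve cells of muscle. The labels do not say that the replicates came from separate cultures, so the p-values measure only the spread between these libraries. Fewer cells of a type and less RNA per cell cannot be told apart in such bulk samples.

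Totals ran from 19631435 counts in vehicle replicate 1 to 88596296 in dexamethasone replicate 2. Myotube markers were present: all 13 were tested, and their summed level was 124988 and 43739 CPM (here and from here on with TMM factors, which adjust the library totals) in vehicle replicates 1 and 2, against 120529 and 42668 after dexamethasone. Both libraries numbered 1 were thus well above both numbered 2, and most of that sum was titin (Ttn). Not every marker followed it. For Mymk replicate 1 was 1.01 times replicate 2 in vehicle and 1 times after dexamethasone. For Mymx these ratios were 0.766 and 0.634. The remaining markers were higher in both libraries numbered 1. Of 10 immune markers 8 had too few counts to test. Among these, Cd3e lies in a run of 164 consecutive genes listed at 0 and was not read as silent. Ptprc (CD45), which defines leukocytes, had at most 1 count in any library, and the list summed to between 5.27 and 7.81 CPM, nearly all from Cd68 and Itgam. Of 6 endothelial markers 3 were tested, and the list summed to between 7.74 and 10.2 CPM. The parts of these markers in the chemokine values were not tested.

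None of the 9 genes was called at an adjusted p under 0.05. In the CXC ligands Cxcl5 and Cxcl12 both dexamethasone libraries lay below both vehicle libraries, at log2 fold changes of -2.06 and -1.28. In the other 7 genes the groups overlapped, and the libraries were instead set apart by replicate number. Over all 13285 tested genes, edgeR's quasi-likelihood test called 0.0376% higher and 0% lower at an adjusted p under 0.05. At an unadjusted p under 0.05 it put 1.69% of all genes lower. Of the 9 members, 2 were among them (Cxcl5 and Cxcl12), with 0 members higher. The members and the lists below were chosen with earlier results of these data known, so their shares are no independent comparison with all genes. Both dexamethasone libraries lay below both vehicle libraries in 12.9% of all genes and above them in 15% of all genes, against 2 and 0 of the 9 members. DESeq2's Wald test called 1 of the 9 lower (Cxcl5), where it called 0.399% of all genes lower and 1.77% higher. A fit blocked on replicate number called 4 of the 9 lower and 0 higher, where it called 5.78% and 6.87% of all genes, and it is described with the other alternatives. The median log2 fold change of the 9 was -0.49 (range -2.20 to 0.35), with 2 positive and 7 negative, and the median of all tested genes was -0.00.

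**Figure D1:**
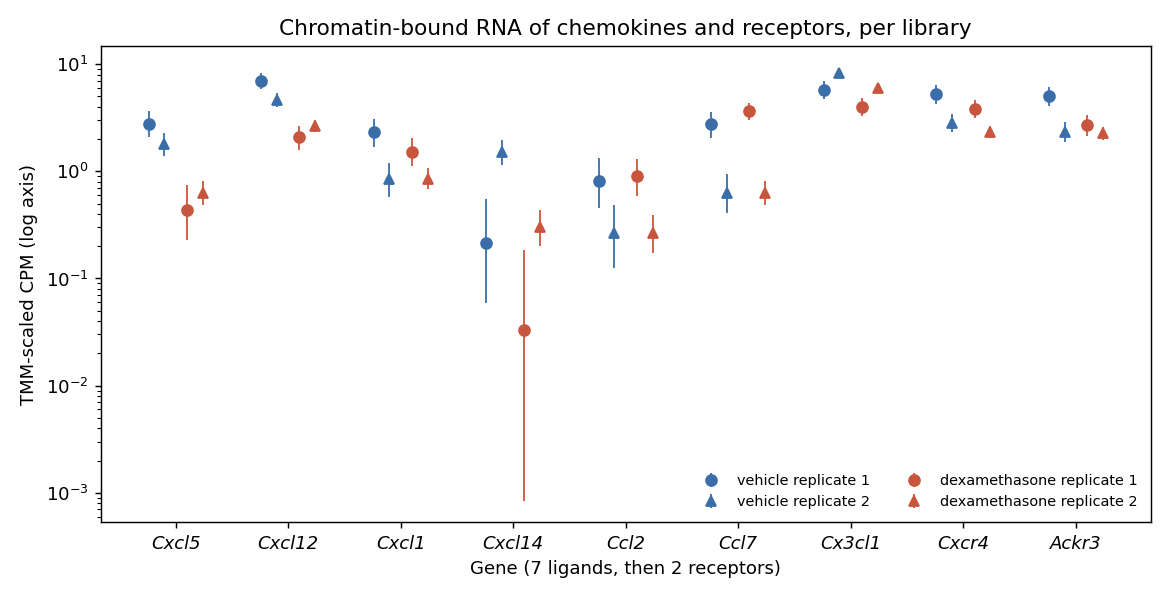
TMM-scaled CPM (log axis) of each member in every library, vehicle in blue and dexamethasone in red, circles for replicate 1 and triangles for replicate 2. Bars are exact 95% Poisson intervals and cover counting error only. In Cxcl5 and Cxcl12 both red points lie below both blue points, and Cxcl14 rests on 1 count in dexamethasone replicate 1.

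As baseline levels, CPM per kilobase of exon (lengths from GENCODE M21) were used to set the members in order. Whether introns entered the counting is not given. If they did, exon length does not make levels of different genes comparable. In vehicle the order of mean level was Cxcr4 (2.23), Ccl7 (2.1), Cx3cl1 (1.8), Cxcl5 (1.23), Ackr3 (1.1), Cxcl1 (0.84), Cxcl12 (0.709), Cxcl14 (0.47) and Ccl2 (0.469 CPM per kilobase). The vehicle ranges of every pair of neighbours in this order overlapped, so no step of it exceeds the spread between the 2 libraries. All 9 lay below the median of 4.45 CPM per kilobase of 13221 tested genes with a length. Cxcr4 stood at percentile 34.7 of these genes and Ccl2 at percentile 14.3. Counts per library ran from 1 (Cxcl14) to 561 (Cx3cl1).

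Cxcl5 (ENSMUSG00000029371) encodes a CXC ligand that attracts neutrophils through Cxcr2. Vehicle replicates 1 and 2 gave 52 and 68 counts, and dexamethasone replicates 1 and 2 gave 13 and 59, or 2.79 and 1.79 against 0.434 and 0.632 CPM. The groups did not overlap, and both libraries of dexamethasone were low. The means were 2.29 ± 0.705 and 0.533 ± 0.14 CPM (SD, n = 2 per group). The log2 fold change was -2.06 (SE 0.425, 95% interval -3.18 to -0.93, edgeR unadjusted p 0.00604, adjusted p 0.321). The difference was larger than the spread within either group, but it did not pass over all genes. Within replicate number 1 the dexamethasone level was 0.155 times that of vehicle, and within number 2 it was 0.353 times. DESeq2's Wald test called it (log2 fold change -2.08, adjusted p 0.037), and over all alternatives that keep the 4 libraries the adjusted p ran from 0.0146 to 0.431.

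Cxcl12 (ENSMUSG00000061353) encodes stromal cell-derived factor 1, the ligand of Cxcr4 and Ackr3. Its counts were 130 and 175 under vehicle, with 62 and 246 under dexamethasone, or 6.97 and 4.61 against 2.07 and 2.63 CPM. Here too both dexamethasone libraries were the low ones. The means were 5.79 ± 1.67 and 2.35 ± 0.4 CPM (SD, n = 2 per group). The log2 fold change was -1.28 (SE 0.321, 95% interval -2.13 to -0.44), with an edgeR unadjusted p of 0.0124 and an adjusted p of 0.449. Within number 1 the ratio of dexamethasone to vehicle was 0.297 and within number 2 it was 0.571. In both genes the replicate 1 pair gave the lower ratio, a difference that was not tested.

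The 300-base windows around the annotated starts of Cxcl12 and Cxcl1 are shown because these CXC ligand genes differed in how their libraries separated, Cxcl12 by treatment and Cxcl1 by replicate number. RefSeq (GRCm38.p6) gave such a window, 250 bases before to 50 after the start, for 6 of the 9 members (Cxcl1, Cxcl12, Cxcl14, Cx3cl1, Cxcr4 and Ackr3). Capitals mark matches, on either strand, to ACANNNTGT (the core of a glucocorticoid response element), the NF-kappaB motif (GGG and TTCC with any 3 bases between them), TGANTCA (AP-1) or TATAAA (the TATA box). The Cxcl12 window is chr6:117168285-117168584 and that of Cxcl1 is chr5:90890995-90891294, both on the + strand and both written 5′ to 3′.
Cxcl12: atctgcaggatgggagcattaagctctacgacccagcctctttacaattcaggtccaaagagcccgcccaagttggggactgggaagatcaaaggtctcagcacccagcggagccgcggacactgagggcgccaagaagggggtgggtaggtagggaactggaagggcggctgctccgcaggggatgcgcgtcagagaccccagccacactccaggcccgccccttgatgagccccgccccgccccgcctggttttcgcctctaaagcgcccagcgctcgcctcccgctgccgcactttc
Cxcl1: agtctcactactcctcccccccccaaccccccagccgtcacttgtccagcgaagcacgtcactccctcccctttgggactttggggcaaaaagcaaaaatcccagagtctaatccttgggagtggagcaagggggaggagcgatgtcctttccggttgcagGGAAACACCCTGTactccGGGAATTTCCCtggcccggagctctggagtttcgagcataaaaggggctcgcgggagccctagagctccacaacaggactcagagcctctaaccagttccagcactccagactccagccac
The Cxcl12 window held none of these letters. The Cxcl1 window held GGGAATTTCC starting 71 bases before the start, overlapping its own reverse match, and ACACCCTGT starting 85 bases before it, which overlaps a further reverse match to the NF-kappaB motif, GGAAACACCC. Of 32851 windows of this length, 6.85% held ACANNNTGT, 5.56% the NF-kappaB motif, 7.81% TGANTCA and 13.6% TATAAA. Cxcr4 held TATAAA starting 30 bases before the start, overlapping its own reverse match. In Cx3cl1 and Ackr3 it started only 6 and 8 bases before the start. Cxcl14 held none of these motifs. These are matches of letters, and the counts carry no information on binding or on the start sites used.

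Cxcl1 (ENSMUSG00000029380), like Cxcl5 a neutrophil attractant and a known NF-kappaB target, had 43 and 32 counts in vehicle and 46 and 80 after dexamethasone. Its levels were 2.31 and 0.843 CPM under vehicle, with 1.53 and 0.857 CPM under dexamethasone. Both libraries numbered 1 were high and the groups overlapped. The log2 fold change was -0.39 (SE 0.632, 95% interval -2.06 to 1.29, edgeR adjusted p 1), an interval that holds large differences in either direction. It was 0.47 without vehicle replicate 1.

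Cxcl14 (ENSMUSG00000021508), a CXC ligand made by many epithelial and stromal cells, was the most uneven member. It had 4 and 57 counts in vehicle and 1 and 28 after dexamethasone, or 0.215 and 1.5 against 0.0334 and 0.3 CPM. Both libraries numbered 2 were the high ones. The log2 fold change of -2.20 (SE 1.16, 95% interval -5.27 to 0.87, edgeR unadjusted p 0.122, adjusted p 1) was the lowest of the 9, but it depended on each library. It was -4.59 when dexamethasone replicate 2 was left out, -0.12 when vehicle replicate 2 was, -2.91 when vehicle replicate 1 was and -1.58 when dexamethasone replicate 1 was. Within number 2 the ratio of dexamethasone to vehicle was 0.2. Within number 1 it was 0.155 with an exact 95% counting interval of 0.00316 to 1.57, since it compares 1 count with 4.

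Ccl2 (ENSMUSG00000035385) and Ccl7 (ENSMUSG00000035373) encode the monocyte attractants MCP-1 and MCP-3, ligands of Ccr2, and are neighbouring genes. Ccl2 had 15 and 10 counts in vehicle and 27 and 25 after dexamethasone, or 0.805 and 0.264 against 0.901 and 0.268 CPM. Ccl7 had 51 and 24 counts in vehicle and 109 and 59 after dexamethasone, or 2.74 and 0.632 against 3.64 and 0.632 CPM. In both genes the libraries numbered 1 were high in either group: replicate 1 was 3.05 times replicate 2 in vehicle and 3.36 times after dexamethasone for Ccl2, and 4.33 and 5.76 times for Ccl7. Within a replicate number the dexamethasone to vehicle ratio was 1.12 and 1.02 for Ccl2 and 1.33 and 0.999 for Ccl7. The log2 fold changes were 0.13 for Ccl2 (95% interval -2.22 to 2.48) and 0.35 for Ccl7 (-2.55 to 3.25), each with an edgeR adjusted p of 1. These intervals hold differences of over 4-fold in either direction. Leaving out some single libraries turned the sign. Without dexamethasone replicate 1 the values were -0.91 and -1.37, and without vehicle replicate 2 they were -0.56 and -0.41. The sign stayed positive without vehicle replicate 1 (1.05 and 1.71) and without dexamethasone replicate 2 (0.83 and 1.16).

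Cx3cl1 (ENSMUSG00000031778) encodes fractalkine, a chemokine on a membrane-anchored stalk that proteases can release. It had the most counts of the 9 in total, with 108 and 316 in vehicle and 120 and 561 after dexamethasone. Its levels were 5.79 and 8.33 CPM against 4 and 6.01 CPM. The groups overlapped, because both libraries numbered 2 were high. Within number 1 the dexamethasone level was 0.691 times that of vehicle and within number 2 it was 0.721 times. The log2 fold change was -0.49 (SE 0.32, 95% interval -1.34 to 0.35, edgeR unadjusted p 0.189, adjusted p 1), and it stayed negative, between -0.82 and -0.20, in the 4 fits that each left out 1 library.

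Cxcr4 (ENSMUSG00000045382) and Ackr3 (ENSMUSG00000044337) encode the receptors of Cxcl12. Cxcr4 signals through inhibitory G proteins, and Ackr3 is an atypical receptor that takes up and clears the ligand. Cxcr4 had 98 and 107 counts in vehicle and 115 and 218 after dexamethasone, or 5.26 and 2.82 against 3.84 and 2.33 CPM. Ackr3 had 94 and 89 counts in vehicle and 81 and 212 after dexamethasone, or 5.04 and 2.35 against 2.7 and 2.27 CPM. In Cxcr4 and in Ackr3 both libraries numbered 1 were above both numbered 2, although for Ackr3 the gap between 2.7 and 2.35 CPM was small. The log2 fold change was -0.39 for Cxcr4 (SE 0.445, 95% interval -1.56 to 0.79) and -0.56 for Ackr3 (SE 0.444, 95% interval -1.74 to 0.62), each with an edgeR adjusted p of 1. Without vehicle replicate 1 they were 0.12 and 0.08, and that library was the only one whose removal turned the sign. Beside the ligand's -1.28, neither receptor gave an interval that excludes 0.

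**Figure D2:**
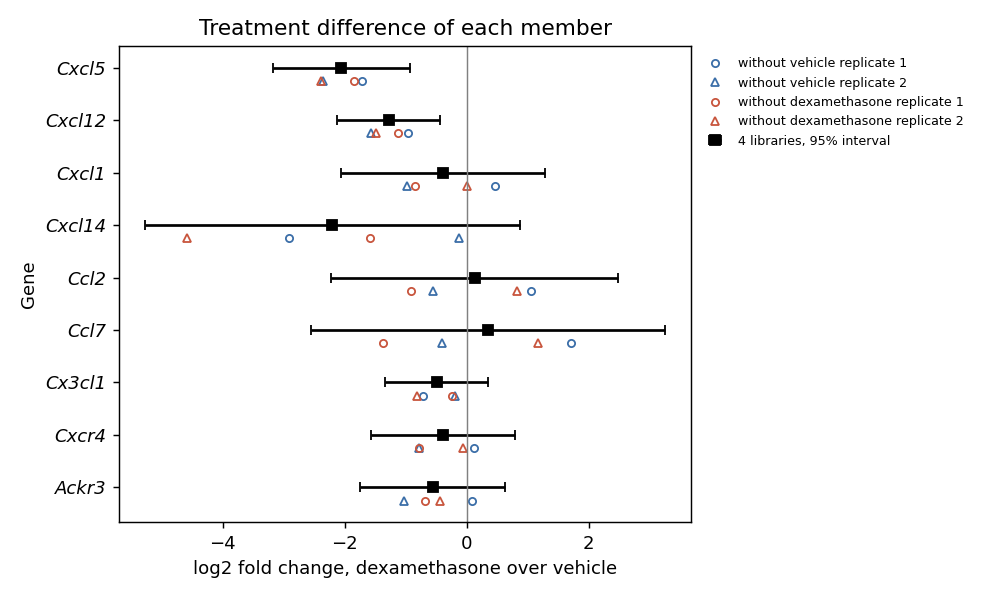
Log2 fold change of dexamethasone over vehicle for each member (black squares, edgeR, bars are 95% intervals) and the value without each library in turn (open symbols). Only the bars of Cxcl5 and Cxcl12 stay below 0 among the 9, and Cxcl1, Ccl2, Ccl7, Cxcr4 and Ackr3 have open symbols on either side of 0.

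Replicate number was the larger source of spread for most members. Both libraries numbered 1 lay above both numbered 2 in 5 members (Cxcl1, Ccl2, Ccl7, Cxcr4 and Ackr3) and below them in 2 (Cxcl14 and Cx3cl1). Among all tested genes this held for 31.8% above and 32.1% below, so 63.9% were set apart by number, 27.9% by treatment and 8.2% by neither. The count of 7 of 9 is therefore close to the background. On log2 CPM values with a prior count of 2, the mean difference of number 1 from number 2 was 2.24 for Ccl7, 1.53 for Ccl2, 1.11 for Cxcl1 and -2.36 for Cxcl14. It was 0.06 for Cxcl5 and 0.12 for Cxcl12, means in which opposite gaps of the groups cancel. For Cxcl5 replicate 1 was 1.56 times replicate 2 in vehicle and 0.686 times after dexamethasone. For Cxcl12 these ratios were 1.51 and 0.785. The summed level of the myotube markers, mostly titin, was higher in both libraries numbered 1, while Mymk and Mymx were not, as given above. The part of these markers in the differences was not tested. The labels do not say what the number stands for, so a batch, a culture or a day cannot be told apart.

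**Figure D3:**
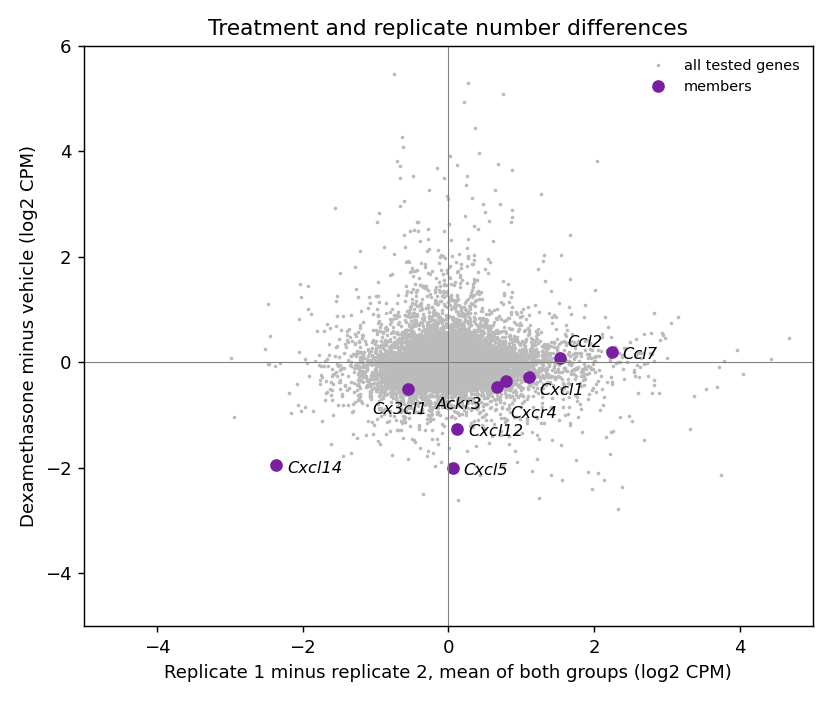
Difference between treatments (vertical) against difference between replicate numbers (horizontal), both in log2 CPM with a prior count of 2, for 13285 tested genes (grey) and the 9 members (purple). Cxcl5 and Cxcl12 lie near 0 on the horizontal axis and low on the vertical axis, and Ccl2 and Ccl7 lie near 0 on the vertical axis and far to the right. The horizontal value is a mean of both groups, in which the opposite gaps of Cxcl5 and of Cxcl12 cancel.

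Genes with the most similar profiles were sought by the Euclidean distance between log2 CPM values centred on each gene's mean over the 4 libraries. Nearest to Cxcl5 were Meox1 (distance 0.144), Krt14 (0.522) and Cdh8 (0.567). Meox1 had 1.93 and 1.4 CPM in vehicle and 0.334 and 0.471 CPM after dexamethasone. Nearest to Cxcl12 were Dlx3 (0.0679), Ptgfr (0.222) and Celsr2 (0.274). Ptgfr, the receptor of prostaglandin F2 alpha, had 6.17 and 4.82 CPM in vehicle and 2.17 and 2.4 CPM after dexamethasone. Without a block edgeR called none of the 6 (adjusted p from 0.321 to 1). Blocking on replicate number called Ptgfr (edgeR adjusted p 0.00692), Meox1 (0.0167) and Krt14 (0.0428), and DESeq2's Wald test called Ptgfr (adjusted p 0.0436). The measure of likeness rests on the same 4 libraries as these tests. Lower dexamethasone values in the 6 therefore follow from how they were chosen, and the calls are no separate evidence. In dexamethasone replicate 1 Krt14 had 4 counts and Cdh8 had 2.

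The rest of the chemokine family was scarcely detected. Of 31 other chemokine ligands 30 had too few counts to test, with at most 15 in any library (Ccl17), and 16 were at 0 in all 4 libraries, among them Cxcl2, Cxcl3, Ccl3 and Ccl4. A count of 0 still allows up to 3 counts, or 0.153 CPM of the total in vehicle replicate 1 and 0.0339 CPM in dexamethasone replicate 2. The interferon-induced ligand Cxcl10 had at most 1 count in each library. The tested ligand was Ccl25, a thymic and intestinal chemokine, with 1287 and 2831 counts in vehicle and 2112 and 6940 after dexamethasone. Its level was even across libraries, at 69 and 74.6 CPM in vehicle and 70.5 and 74.3 CPM after dexamethasone, with a log2 fold change of 0.01 (95% interval -0.32 to 0.34, edgeR adjusted p 1). Exons of Ccl25 overlap those of Elavl1 on the opposite strand, which had 161, 147, 166 and 160 CPM in vehicle 1, vehicle 2, dexamethasone 1 and dexamethasone 2. The sources used here do not say whether the counting used strand, so reads of the 2 genes cannot be told apart. The same limit holds for other genes named below whose exons overlap a gene on the opposite strand. Ccr9, Adam17, Zfp36, Zfp36l2 and Pdgfra are among them.

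Of 23 other receptors 20 had too few counts to test. Ccr1, Ccr4, Ccrl2, Xcr1, Ackr4 and Cx3cr1, the receptor of Cx3cl1, lie in a run of 371 consecutive genes on the minus strand of chromosome 9 (GENCODE M21 order) that are all listed at 0, and Cxcr5 lies in a further run of 164. These 7 were therefore not read as silent. Cxcr2, the receptor of Cxcl1 and Cxcl5, was at 0 in all 4 libraries and lies in neither run. Ccr2, the receptor of Ccl2 and Ccl7, had 1 count in all. The chemerin receptor Cmklr1 had the most counts of the tested receptors outside the 9, and stood at 23.8 and 39.3 CPM in vehicle and 15.3 and 17.7 CPM after dexamethasone. Its groups did not overlap, and its log2 fold change was -0.94 (SE 0.285, 95% interval -1.69 to -0.18, edgeR unadjusted p 0.025, adjusted p 0.624). Ccr9 and the scavenger Ackr2 had at most 28 counts in a library and log2 fold changes of -0.12 (95% interval -1.63 to 1.39) and 0.27 (-1.11 to 1.66).

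Downstream of the receptors, 22 of 25 genes of G protein signalling, arrestins, receptor kinases and the migration machinery were tested, and 0 were called in either direction. Their median log2 fold change was -0.08. At an unadjusted p under 0.05, 1 was higher and 0 lower, against 4.09% and 1.69% of all genes. That gene was Gng2, a G protein gamma subunit, with 47.5 and 50.8 CPM in vehicle and 62 and 79.6 CPM after dexamethasone (log2 fold change 0.53, edgeR adjusted p 0.714). The arrestin gene Arrb2 was at -0.44 (95% interval -1.07 to 0.19) and the kinase gene Ptk2b at 0.35 (-0.18 to 0.89). Gnai2 lies in the run of 371 genes listed at 0 and was not measured.

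Of 20 genes that present, trim or release chemokines at the cell surface, 16 were tested and 0 were called, with a median log2 fold change of 0.00. At an unadjusted p under 0.05, 2 were higher and 2 lower, where 4.09% and 1.69% of all genes were. The heparan sulphate carrier Sdc2 (syndecan 2) had 1196 and 872 CPM in vehicle and 613 and 462 CPM after dexamethasone, without overlap, and a log2 fold change of -0.94 (SE 0.24, edgeR adjusted p 0.46). DESeq2's Wald test called it (adjusted p 0.0243). Hs6st1, a heparan sulphate sulphotransferase, was at -0.91 (95% interval -1.59 to -0.24), and Sdc4 was at 0.68 (0.15 to 1.21), with edgeR adjusted p of 0.538 and 0.593. The sheddases of fractalkine, Adam10 and Adam17, were at 0.02 (95% interval -0.60 to 0.65) and -0.09 (-0.42 to 0.25). Dpp4, the peptidase that inactivates Cxcl12, had at most 12 counts and was not tested.

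Among 25 genes that control chemokine transcription or messenger decay, 24 were tested and 0 were called by edgeR, with a median of 0.01. At an unadjusted p under 0.05, 4 were higher (Nfkbia, Zfp36l2, Zfp36 and Nfkbiz) and 0 lower, where 4.09% and 1.69% of all genes were. This list was chosen with earlier results of these data known, so the shares are no independent comparison. Nfkbia, the inhibitor of NF-kappaB, had 34 and 80 counts in vehicle and 229 and 527 after dexamethasone, or 1.82 and 2.11 against 7.64 and 5.64 CPM. Both dexamethasone libraries were high, and its log2 fold change was 1.74 (SE 0.278, 95% interval 1.01 to 2.48, edgeR adjusted p 0.201). Zfp36l2 and Zfp36, which bind AU-rich messengers and promote their decay, were at 1.35 (95% interval 0.64 to 2.06, edgeR adjusted p 0.302) and 1.00 (0.42 to 1.59, edgeR adjusted p 0.35). Nfkbiz was at 0.60 (0.19 to 1.00, edgeR adjusted p 0.46), with both dexamethasone libraries above both vehicle libraries. DESeq2's Wald test called Nfkbia (adjusted p 0.00128) and Zfp36l2 (0.00434). The NF-kappaB subunit genes Nfkb1 and Rela were at -0.17 (95% interval -0.53 to 0.19) and 0.03 (-0.61 to 0.66). Chuk lies in a run of 146 genes listed at 0 on chromosome 19 and was not measured.

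**Figure D4:**
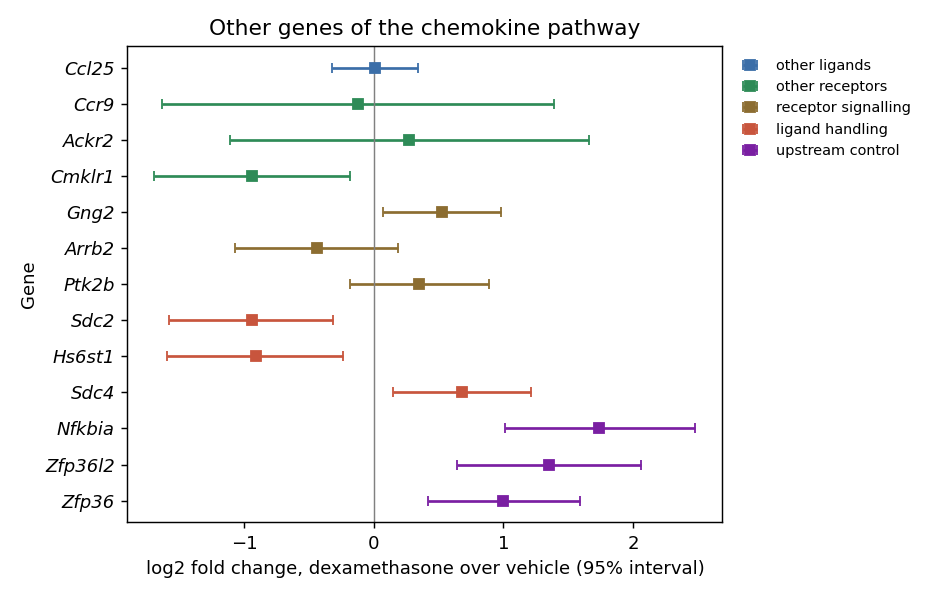
Log2 fold change of dexamethasone over vehicle with 95% intervals (edgeR) for 13 other genes of the chemokine system, coloured by list. The intervals of Nfkbia, Zfp36l2, Zfp36, Sdc4 and Gng2 lie to the right of 0 and those of Sdc2, Hs6st1 and Cmklr1 to the left. None passed an adjusted p of 0.05.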

How the data were processed

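The authors deposited 1 table of raw read counts per gene. The submitters' processing notes name the build mm9 and TopHat2 2.0.13, SAMtools 1.1, HTSeq 0.6.1 and DESeq2 1.18.1, with no settings. Whether introns or strand entered the counting is not given in the sources used here, nor whether a stranded total RNA or mRNA kit was used, since the labels name both. Of 23333 rows, 51 repeated an earlier gene and its counts and were used once. Totals were 19631435 and 35116830 counts in vehicle replicates 1 and 2 and 32463331 and 88596296 in dexamethasone replicates 1 and 2. Genes passing filterByExpr (minimum count 10, minimum total 15) were fitted in edgeR 4.0.16 under R 4.3.3 (quasi-likelihood, TMM, group as the only term, two-sided, Benjamini-Hochberg over 13285 genes, threshold 0.05). The test was run on simulated counts with a single common dispersion and no difference between replicate numbers. That check therefore does not cover the gap between numbers in these libraries. The SE is the log2 fold change over the square root of F, and 95% intervals use edgeR's total degrees of freedom. Poisson intervals and floors cover counting error only.

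Members and lists were chosen with earlier results of these data known. Named genes are the 9 members, every other ligand or receptor that passed the filter, any called member and the 3 genes of smallest unadjusted p of each further list, and the 3 genes nearest to Cxcl5 and Cxcl12. Other genes named describe the libraries, are receptors or enzymes of a named ligand, or were chosen after their values were seen. Alternatives were DESeq2 size factors, library size only, looser and stricter filters, DESeq2 1.42.0, limma-voom (limma 3.58.1), a replicate block, thinning, a threshold of 0.1 and leaving out each library. Gene order and exon lengths are from GENCODE M21 (GRCm38), used without coordinates because the build differs.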

Additional observations from a re-analysis of the deposited data

How the results depend on the processing

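Without a block, 5 genes were called higher and 0 lower by edgeR (543 and 225 at an unadjusted p under 0.05). The number higher was 23 with no filter beyond 1 count, 235 with DESeq2's Wald test (53 lower) and 0 with limma-voom, and ran from 4 to 63 with 1 library left out (lower, 0 to 8). Leaving out vehicle replicate 1 gave 4, vehicle replicate 2 gave 25 (8 lower), dexamethasone replicate 1 gave 63 (1 lower) and dexamethasone replicate 2 gave 61 (3 lower). In those fits the lone library is assumed to vary like the others, and 0 members were called. DESeq2 called 1 member lower (Cxcl5), 1 gene of ligand handling lower and 2 genes of upstream control higher. The cause was not tested.

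The labels do not say that a replicate number marks a batch, and 2 pairs cannot show that the numbers pair the libraries. Over 13285 genes (genes are not replicates), the gap between numbers 1 and 2 in vehicle correlated with that in dexamethasone (r = 0.734). Blocking on the replicate number left 1 residual degree of freedom, and 913 genes were called higher and 768 lower, which is 6.87% and 5.78% of those tested. The block called 4 of the 9 members lower: Cxcl5 (-1.95, edgeR adjusted p 0.0146), Cxcl12 (-1.19, 0.0211), Cxcl14 (-2.34, 0.012) and Cx3cl1 (-0.49, 0.0386). In the same fit 1 other receptor was lower, 1 gene of receptor signalling was higher and 1 lower, 3 genes of ligand handling were higher and 5 lower, and 4 genes of upstream control were higher and 1 lower.

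Leaving out 1 library reversed 7 of 36 member values. Without vehicle replicate 1 these were Cxcl1 (0.47), Cxcr4 (0.12) and Ackr3 (0.08), without vehicle replicate 2 they were Ccl2 (-0.56) and Ccl7 (-0.41), and without dexamethasone replicate 1 they were Ccl2 (-0.91) and Ccl7 (-1.37). The ranges over the 4 fits were -0.98 to 0.47 for Cxcl1, -0.91 to 1.05 for Ccl2, -1.37 to 1.71 for Ccl7, -0.78 to 0.12 for Cxcr4 and -1.02 to 0.08 for Ackr3. Ccl2 also reversed with limma-voom (-0.07). Of the other alternatives for members, 73 kept direction and side, 5 became stronger and 1 reversed. Among these the threshold of 0.1 reuses the main fit, so its values could not reverse. Ccl25, close to 0 throughout, was at -0.00 with DESeq2 size factors and with DESeq2's Wald test, -0.03 with library size only, -0.02 when thinned, and -0.03 without dexamethasone replicate 2, with a range of -0.04 to 0.07 over the fits without 1 library. Those ranges were -0.60 to 0.36 for Ccr9 (0.08 without vehicle replicate 2) and -0.02 to 0.82 for Ackr2. Cxcl5, Cxcl14, Ccl2 and Ccl7 had under 30 counts in a library. The SE of the log2 fold change was largest for Cxcl14 (1.16), Ccl7 (1.1), Ccl2 (0.887) and Cxcl1 (0.632). For Cxcl5 it was 0.425.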

Other observations

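Markers of unfused, cycling and stromal cells, which express several of these chemokines in muscle, did not share a direction. All 7 myoblast and cycling markers were tested and edgeR called 0, with 6 log2 fold changes positive, 1 negative and a median of 0.20. The negative one was Pax7, the transcription factor of satellite cells, which had 32 and 39 CPM in vehicle replicates 1 and 2 and 17.9 and 22.9 CPM after dexamethasone (-0.80, 95% interval -1.33 to -0.27, edgeR adjusted p 0.456). Myf5, the other myoblast factor, was at 0.30 (-0.94 to 1.55), and the cycling markers Aurkb, Cdk1, Ccnb1, Top2a and Mki67 were at 0.25, 0.23, 0.20, 0.09 and 0.07, each with an interval that holds 0.

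Of 7 fibroblast markers 4 were tested and edgeR called 0, with 2 positive and 2 negative. Col3a1, the most abundant in CPM, was at 0.12 (95% interval -0.63 to 0.87) with overlapping groups. Pdgfra, a marker of fibro-adipogenic cells, had 6.12 and 4.3 CPM in vehicle and 9.14 and 12 CPM after dexamethasone (1.04, 0.30 to 1.77, edgeR adjusted p 0.503). Col1a1, a fibrillar collagen chain, had 24.3 and 47.4 CPM in vehicle and 19.9 and 16.8 CPM after dexamethasone (-0.98, -1.92 to -0.03, edgeR adjusted p 0.823). Dcn was at -0.51 (-1.15 to 0.13), also without overlap. Lum, Thy1 and Tcf21 were listed at 0 in all 4 libraries. Of these 11 tested markers the fit blocked on replicate number called Pax7 lower (edgeR adjusted p 0.000881) and Pdgfra higher (0.0172), and DESeq2's Wald test called none (adjusted p 0.0893 for Pax7 and 0.136 for Pdgfra).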
